A study of Mus musculus with 84 samples.

Results

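The genes described are 10 components of the MHC class I presentation machinery, which were H2-D1, H2-K1, H2-Q4, H2-T23, B2m, Tap1, Tap2, Tapbp, Psmb8 and Nlrc5. They were chosen by name with earlier results of these data known, so the numbers of members called are descriptions. Their Ensembl identifiers were matched to symbols of the GRCm38 annotation. All 10 were found among the 48526 genes of the table on experimental autoimmune encephalomyelitis (EAE) and among the 25773 genes of the table on astrocyte subtypes. On GRCm38 the gene of β2-microglobulin lies at chr2:122147686-122153083 and Nlrc5 at chr8:94434356-94527272, and the other 8 lie on chromosome 17 in the region of the MHC, for example H2-K1 at chr17:33996017-34000347, Tap1 at chr17:34187553-34197225, Psmb8 at chr17:34197721-34201454 and H2-D1 at chr17:35262730-35267499. Reads were counted over exons of whole genes.

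MHC class I molecules carry short peptides of the cell's own proteins to the surface, where CD8 T cells and natural killer cells read them. A heavy chain pairs with the light chain β2-microglobulin and is loaded in the endoplasmic reticulum with peptides that the immunoproteasome cuts, that the TAP transporter imports and that tapasin helps to fit. Interferons raise these genes together through STAT and IRF factors and through the transactivator NLRC5. Resting cells of the central nervous system are known for low class I expression.

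RNA was sequenced from ACSA-2+ cells sorted as GLASTneg or GLASTpos, that is without or with surface GLAST, from perfused mice. The EAE experiment held 66 libraries of C57BL/6J mice in 12 groups, which were GLASTneg and GLASTpos cells of hindbrain and GLASTneg cells of spinal cord. Each population was taken from unimmunized mice (C, 5 libraries each) and from females immunized at 10 weeks of age with MOG peptide in complete Freund's adjuvant plus pertussis toxin. These were sacrificed at score 1 with a limp tail (E1, 6, 6 and 5 libraries), at score 4 with hind leg paralysis (E4, 6 each) or at the chronic stage (Ech, 6, 4 and 6). The controls had received neither adjuvant nor toxin, so these agents and EAE cannot be told apart in any comparison with C. The subtype experiment held 3 libraries from each of 5 populations of untreated FVB/N mice and 3 of cultured astrocytes, which were cells of newborn C57BL/6 cerebrum that stayed in the flask after microglia had been shaken off. A library could hold RNA of more than 1 mouse. The labels do not say that replicates come from separate animals, so the p-values measure the spread between libraries, which may be technical.

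EAE libraries held 1313682 to 4895220 counts (median 2936680). Levels are given as counts per 1000000 counts of a library (CPM) with scaled library sizes and as mean ± SD over libraries. The libraries read the 3′ ends of transcripts, so levels are compared between groups and not between genes. A gene counts as detected in a library above 3 counts, which corresponded to 0.634 to 2.44 CPM, and this limit covers counting error only. A gene is called when the adjusted p of edgeR's quasi-likelihood test, over all 23324 genes tested, was under 0.05 and the log2 fold change exceeded 1 in either direction. All 10 genes passed the filter of at least 10 counts in total, and H2-Q4, H2-T23 and Nlrc5 did so through the EAE groups, since each held 0 to 7 counts in a control group, so their passing is no support for a difference.

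The sorted cells were checked against markers. In hindbrain GLASTneg libraries the summed level of 10 astrocyte markers was 20770 to 26280 CPM in C and 22500 to 26390 CPM at E4, and in hindbrain GLASTpos libraries it was 25710 to 28180 and 18350 to 30930 CPM. In spinal cord the same sum was 13070 to 18370 CPM in C, 4317 to 22250 CPM at E1, 2430 to 3930 CPM at E4 and 3500 to 5976 CPM at Ech. The spinal cord groups at E4 and Ech therefore lay below their controls in every library. Atp1b2, which encodes the ACSA-2 antigen itself, averaged 6598 ± 926.5 CPM in spinal cord C, 356.8 ± 209 CPM at E4 and 456.1 ± 136.5 CPM at Ech. The sum of 10 oligodendrocyte markers in spinal cord was 13820 to 39620 CPM in C, 25250 to 57820 CPM at E1, 28170 to 71980 CPM at E4 and 24380 to 39400 CPM at Ech, against 1053 to 11550 CPM over all hindbrain libraries. One E1 library of spinal cord, replicate 1, carries labels that disagree on its region and was kept where its title puts it, and leaving out any 1 library left 9 to 10 members called at E1 in spinal cord. In bulk RNA, fewer cells of a type and less RNA per cell cannot be told apart.

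Class I genes were called higher in all 3 populations and at all 3 stages of EAE, from 10 of 10 in spinal cord at E1 to 2 of 10 in hindbrain GLASTpos cells at Ech, and 0 were called lower. At E1, 8 of 10 were called higher than C in hindbrain GLASTneg cells (0.635% of all genes tested), 7 in hindbrain GLASTpos cells (1.27%) and 10 in spinal cord (2.5%). At E4, 9 of 10 were called in hindbrain GLASTneg cells (0.707%), 8 in GLASTpos cells (1.66%) and 9 in spinal cord (6.8%). At Ech the numbers were 5 (0.189%), 2 (1.21%) and 9 (5.16%). Of the 90 log2 fold changes in these 9 comparisons 89 were above 0 and 67 were called, and the exception was Tap2 at Ech in hindbrain GLASTneg cells (-1.54, edgeR adjusted p = 0.67). The 3 stages of a population share 1 set of 5 control libraries. Each label carries an S number, and all 5 spinal cord controls have a number from 57 on, while 5 of 6 spinal cord libraries at E4 have one up to 56. With only libraries from 57 on, where 1 E4 library remains and is assumed to vary like the others, 9, 9 and 8 members were called at E1, E4 and Ech in spinal cord, and a term for this split gave the same 3 counts.

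The median log2 fold change of the 10 genes was 2.84, 4.11 and 1.61 at E1, E4 and Ech in hindbrain GLASTneg cells, 2.28, 2.99 and 1.13 in GLASTpos cells and 3.95, 4.93 and 3.64 in spinal cord, with genes at 0 counts in the controls entered at their lower bound. The median over all genes was 0 in each of these comparisons. The heat map shows the fitted log2 fold change of each gene. For genes at 0 counts in the controls it therefore differs from the bounds used in these medians. In each population the median was highest at E4.

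**Figure D1:**
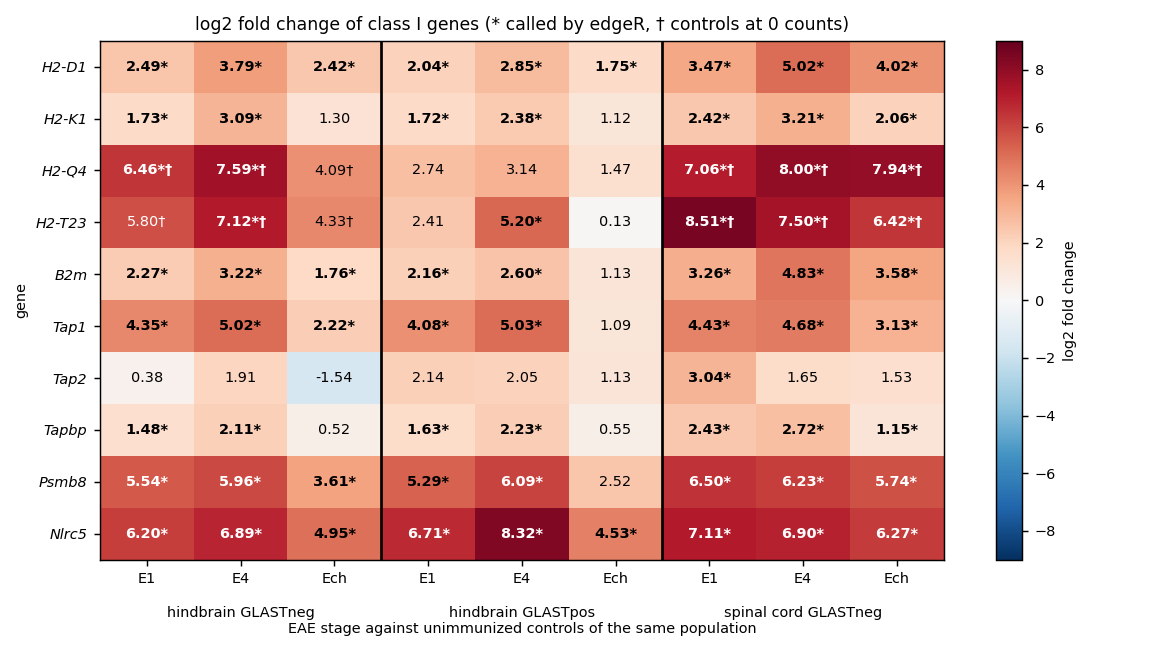
Heat map of the log2 fold change of the 10 class I genes (rows) for each EAE stage against unimmunized controls (columns), in 3 sorted populations. An asterisk marks a call by edgeR, and a dagger marks controls at 0 counts, where the printed fitted value depends on a prior count and is no bound. 67 of the 90 fields are called, and Tap2 at Ech in hindbrain GLASTneg cells is the field below 0.

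The classical heavy chains H2-D1 and H2-K1 present peptide to CD8 T cells. In spinal cord controls H2-D1 was 61, 78.4, 38.7, 43 and 38.8 CPM. At E1 it was 442.1, 203.7, 1126, 552.2 and 556.4 CPM, at E4 it ranged from 1086 to 2350 CPM (median 1705), and at Ech from 681.7 to 998.4 CPM (median 862.5). Every EAE library of spinal cord lay above every control, and the E4 libraries lay above all Ech libraries. The log2 fold change of H2-D1 against C was 3.47 at E1 (SE 0.43, edgeR adjusted p = 1.2e-08), 5.02 at E4 (SE 0.45, edgeR adjusted p = 5.1e-15) and 4.02 at Ech (SE 0.43, edgeR adjusted p = 6e-12), which is 11.1-fold, 32.5-fold and 16.2-fold.

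In hindbrain GLASTneg cells H2-D1 was 58.6, 36.8, 55.9, 42.6 and 56.8 CPM in C, 49.7 to 661.7 CPM at E1 (median 196.8), 475.4 to 956.2 CPM at E4 (median 647.3) and 206.5 to 388.8 CPM at Ech (median 245.9). One E1 library lay within the control range and all E4 and Ech libraries above it. H2-D1 rose by 2.49 at E1 (SE 0.40, edgeR adjusted p = 2.5e-05), by 3.79 at E4 (SE 0.43, edgeR adjusted p = 9.9e-10) and by 2.42 at Ech (SE 0.40, edgeR adjusted p = 0.00028) on the log2 scale. In GLASTpos cells the controls were 62.5, 88.7, 59.4, 77.7 and 72.6 CPM and the E4 libraries 370.7 to 751.3 CPM (median 501.4), without overlap. There the log2 fold change was 2.04 at E1 (edgeR adjusted p = 0.00056), 2.85 at E4 (edgeR adjusted p = 7.3e-07) and 1.75 at Ech (edgeR adjusted p = 0.011). The Ech libraries were 406.3, 149.8, 209.9 and 207.2 CPM, and without the highest the change was 1.39 (edgeR adjusted p = 0.11).

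H2-K1 in the controls was 337.6 ± 42.4, 277.2 ± 15.9 and 284.5 ± 42 CPM in hindbrain GLASTneg, hindbrain GLASTpos and spinal cord (n = 5 each). At E4 the groups were 2866 ± 657.3, 1443 ± 357.1 and 2637 ± 543.5 CPM (n = 6 each), and every E4 library lay above every control of its population. The log2 fold changes were 3.09 (SE 0.34, edgeR adjusted p = 8.1e-10), 2.38 (SE 0.33, edgeR adjusted p = 5e-07) and 3.21 (SE 0.35, edgeR adjusted p = 5.3e-12). At Ech, H2-K1 was called in spinal cord (2.06, edgeR adjusted p = 7.9e-07) and not in hindbrain GLASTneg (1.30, edgeR adjusted p = 0.053) or GLASTpos cells (1.12, edgeR adjusted p = 0.075), although in both the Ech libraries lay above all controls.

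H2-Q4 and H2-T23 are non-classical heavy chains, and H2-T23 encodes Qa-1, the ligand of the inhibitory receptor NKG2A. Both were at 0 counts in all 10 GLASTneg controls. At E4 in spinal cord H2-Q4 ranged from 2.72 to 21.2 CPM (median 9.74) and H2-T23 from 1.95 to 13.9 CPM (median 6.48), and both were detected in 6 of 6 libraries. Against 3 counts over the control group this was at least 54.7-fold higher for H2-Q4 and at least 38.2-fold higher for H2-T23. In hindbrain GLASTneg cells at E4 the bounds were at least 28.6-fold and at least 21.5-fold. All 4 differences were called by edgeR, but that of H2-T23 in hindbrain was lost when any 1 control library was left out (edgeR adjusted p = 0.067 to 0.087). At E1 in hindbrain GLASTneg cells H2-Q4 was called while 3 of 6 libraries were at 0, and this call was also lost without any 1 control library (edgeR adjusted p = 0.081 to 0.1) or without replicate 5 (edgeR adjusted p = 0.22).

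In spinal cord H2-T23 was 5.23, 10.5, 33.2, 14 and 14.3 CPM at E1, at least 66.9-fold above the controls, and at Ech 3 of 6 libraries had 0 counts while 1 reached 14.5 CPM. The E4 and E1 ranges overlapped and their difference was not called (-1.01, SE 1.06, edgeR adjusted p = 0.68). In hindbrain GLASTpos cells H2-T23 was called at E4, where 2 of 6 libraries were at 0 and replicate 6 was at 17.3 CPM. Without that replicate the log2 fold change was 3.35 (edgeR adjusted p = 0.20), against 5.20 with it (edgeR adjusted p = 0.041), and the call was also lost without E4 replicate 1 (edgeR adjusted p = 0.054) or any 1 control library (edgeR adjusted p = 0.052 to 0.12). H2-Q4 and H2-T23 shared 33.7% and 38.1% of the 50-base stretches at their 3′ ends with other annotated transcripts, against 8.9% for H2-D1 and 9.6% for H2-K1. Their values are therefore uncertain where reads of such stretches were split or dropped.

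B2m encodes β2-microglobulin, without which class I heavy chains do not reach the surface. In spinal cord it was 83.8, 68.2, 94.3, 81 and 84.7 CPM in C and 398.5, 425.7, 1716, 755.3 and 664.1 CPM at E1. It was 1803 to 2814 CPM at E4 (median 2401) and 670.3 to 1471 CPM at Ech (median 964.3). The E4 libraries lay above all libraries of every other group, and no EAE library of spinal cord overlapped the controls. The log2 fold change was 3.26 at E1 (SE 0.37, edgeR adjusted p = 1.5e-09), 4.83 at E4 (SE 0.40, edgeR adjusted p = 1.2e-16) and 3.58 at Ech (SE 0.37, edgeR adjusted p = 2e-12), and the E4 value is 28.5-fold.

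In hindbrain, B2m was 102 ± 10.3 CPM in GLASTneg and 100.4 ± 23.7 CPM in GLASTpos controls and 953.3 ± 347.4 and 610 ± 109.6 CPM at E4. The E4 libraries did not overlap the controls in either population. B2m rose by 3.22 (SE 0.37, edgeR adjusted p = 1.2e-09) and by 2.60 (SE 0.35, edgeR adjusted p = 3e-07) on the log2 scale. At Ech it rose by 1.76 in GLASTneg cells (edgeR adjusted p = 0.0042) and was not called in GLASTpos cells (1.13, edgeR adjusted p = 0.094). Over the 12 groups the order of B2m means began with E4 spinal cord, whose libraries stood apart from the next group, Ech spinal cord, and ended with the 3 control groups, which stood apart from Ech of hindbrain GLASTpos cells. All other neighbours in that order overlapped.

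The start regions of 4 genes of the heavy and light chains are shown because they share short sequence elements. The heavy chain regions shown are alike over long stretches, so motifs shared among them are not independent finds. The 250 bases before the RefSeq start site (GRCm38.p6) were available for 8 of the 10 genes. H2-D1 lies at chr17:35262844-35263093 on the plus strand, H2-K1 at chr17:34000348-34000597 on the minus strand, H2-Q4 at chr17:35379367-35379616 on the plus strand and B2m at chr2:122147437-122147686 on the plus strand. Sequences read 5′ to 3′ in the direction of transcription, and capitals mark the motifs found on either strand.
H2-D1: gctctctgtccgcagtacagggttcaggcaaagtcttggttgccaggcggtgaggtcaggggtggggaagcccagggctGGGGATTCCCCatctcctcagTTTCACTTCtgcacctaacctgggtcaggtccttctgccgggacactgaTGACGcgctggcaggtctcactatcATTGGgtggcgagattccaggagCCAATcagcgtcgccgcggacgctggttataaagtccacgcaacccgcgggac
H2-K1: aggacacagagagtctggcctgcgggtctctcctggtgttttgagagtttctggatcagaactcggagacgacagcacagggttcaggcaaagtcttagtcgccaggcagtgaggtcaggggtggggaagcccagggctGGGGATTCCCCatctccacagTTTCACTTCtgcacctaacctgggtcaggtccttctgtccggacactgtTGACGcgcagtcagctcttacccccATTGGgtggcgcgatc
H2-Q4: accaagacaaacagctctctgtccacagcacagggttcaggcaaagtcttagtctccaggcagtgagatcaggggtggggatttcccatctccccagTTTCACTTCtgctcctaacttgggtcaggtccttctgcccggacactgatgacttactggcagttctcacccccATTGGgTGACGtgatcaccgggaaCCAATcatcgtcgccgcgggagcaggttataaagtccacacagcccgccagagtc
B2m: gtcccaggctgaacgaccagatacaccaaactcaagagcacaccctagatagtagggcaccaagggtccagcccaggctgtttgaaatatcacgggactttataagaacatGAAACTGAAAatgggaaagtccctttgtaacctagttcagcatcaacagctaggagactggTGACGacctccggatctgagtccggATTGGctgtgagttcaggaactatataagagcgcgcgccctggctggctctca

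The interferon-stimulated response element, which is GAAA and GAAA around any 2 bases, was found in the B2m region, and in H2-T23 among those not shown. It was held by 3.04% of 27025 promoters of this length. The cyclic AMP response core TGACG was found in 5 of the 8 genes (17.9% of promoters) and the inverted CCAAT box ATTGG in 7 (34.5%). The gamma-activated site TTCNNNGAA was found in Psmb8 (7.18%). Other motifs were chosen after the sequences had been read. TTTCACTTC, a class I motif that resembles the interferon-stimulated response element, stood in H2-D1, H2-K1 and H2-Q4 (0.429% of promoters). The kappaB palindrome, which is GGGG and CCCC around ATT, stood in H2-D1 and H2-K1 (0.022%). TGACG followed at 20 bases by ATTGG stood in H2-D1, H2-K1 and B2m (0.093%). The last motif overlaps the 2 shorter ones by construction. CREB and ATF factors are known to bind TGACG cores, and NF-Y binds inverted CCAAT boxes. These matches describe letters in a window, and binding was not measured.

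Tap1 and Tap2 are the subunits of the peptide transporter, and Tapbp encodes tapasin, which bridges the transporter to the empty heavy chain. Tap1 was 12.3, 7.82, 6.66, 10.7 and 27.0 CPM in hindbrain GLASTneg controls, 74.9 to 328.6 CPM at E1 (median 297.7), 272.1 to 496.9 CPM at E4 (median 437.4) and 26.3 to 117.4 CPM at Ech (median 42.2). All E1 and E4 libraries lay above the controls, and the Ech libraries overlapped them through the highest control. The log2 fold change was 4.35 at E1 (SE 0.51, edgeR adjusted p = 1.3e-08), 5.02 at E4 (SE 0.52, edgeR adjusted p = 1.5e-10) and 2.22 at Ech (SE 0.48, edgeR adjusted p = 0.014). The Ech call was lost without control replicate 1, 2, 3 or 4 or Ech replicate 1 or 3 (edgeR adjusted p = 0.069 to 0.11).

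In spinal cord Tap1 was 24.8, 2.95, 4.87, 8.16 and 8.42 CPM in C, 92.1, 204.6, 350.4, 164.4 and 212.6 CPM at E1, 169.5 to 312 CPM at E4 (median 247.5) and 11 to 160.4 CPM at Ech (median 64.8). It rose by 4.43, 4.68 and 3.13 on the log2 scale at the 3 stages (edgeR adjusted p = 3e-09, 1.6e-11 and 5.6e-07). In hindbrain GLASTpos cells it rose from 5.84 ± 2.99 CPM in C to 101.7 ± 59.3 CPM at E1 and 196.5 ± 93.9 CPM at E4, by 4.08 and 5.03 on the log2 scale (edgeR adjusted p = 7e-08 and 2.2e-10). At Ech these cells were at 15.7, 8.83, 13.5 and 13.0 CPM, which was not called (1.09, edgeR adjusted p = 0.24). Tap1 overlaps exons of Psmb9 on the other strand, and whether the counting used strand was not stated, so reads of the 2 genes may not have been told apart.

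Tap2 values were widely spread within groups. In spinal cord it was 37.2, 20.0, 46.2, 49.3 and 3.28 CPM in C and 31.9, 313.6, 702.4, 13.4 and 236.5 CPM at E1. At E4 it ranged from 25.2 to 334.1 CPM (median 39.9) and at Ech from 1.48 to 250.3 CPM (median 27.0). All EAE groups overlapped their controls, and of 9 comparisons with C the sole call was E1 in spinal cord (3.04, SE 0.91, edgeR adjusted p = 0.023). Without E1 replicate 3 that value was 2.28 (edgeR adjusted p = 0.13), and the call was also lost without control replicate 1 (edgeR adjusted p = 0.051), 2 (edgeR adjusted p = 0.057) or 5 (edgeR adjusted p = 0.074).

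Tapbp was 72.8 ± 6.43, 41.9 ± 6.76 and 48 ± 3.99 CPM in the controls of hindbrain GLASTneg, hindbrain GLASTpos and spinal cord. At E4 it was 315.1 ± 70.9, 197.5 ± 75.2 and 316.4 ± 113 CPM, without overlap in any population. It rose by 2.11 (SE 0.32, edgeR adjusted p = 5.2e-06), 2.23 (SE 0.32, edgeR adjusted p = 1.3e-06) and 2.72 (SE 0.33, edgeR adjusted p = 3.8e-10) on the log2 scale. At Ech it was called in spinal cord (1.15, edgeR adjusted p = 0.0047), where the value without Ech replicate 4 was 0.95, and not in hindbrain GLASTneg (0.52, edgeR adjusted p = 0.72) or GLASTpos cells (0.55, edgeR adjusted p = 0.39). Some exons of Tapbp are shared with Zbtb22 on the same strand.

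Psmb8 encodes an inducible catalytic subunit of the immunoproteasome. It was close to the detection limit in all controls, with 6.94, 0.656, 0, 3.45 and 3.74 CPM in spinal cord, 1.28, 0.920, 5.99, 1.04 and 0 CPM in hindbrain GLASTneg cells and 0.817, 2.27, 1.63, 2.03 and 2.21 CPM in GLASTpos cells. At E4 it ranged from 128.5 to 326.4 CPM (median 176.5), from 51.2 to 143.5 CPM (median 109.9) and from 53.4 to 264.4 CPM (median 93.8), respectively. No E1, E4 or Ech library of any population overlapped the controls. The log2 fold change at E4 was 6.23 (SE 0.73, edgeR adjusted p = 1e-10), 5.96 (SE 0.77, edgeR adjusted p = 6.9e-08) and 6.09 (SE 0.73, edgeR adjusted p = 8.3e-09). At Ech it was 5.74 in spinal cord (edgeR adjusted p = 1.2e-09) and 3.61 in hindbrain GLASTneg cells (edgeR adjusted p = 0.013, and 0.056 to 0.091 without control replicate 1, 2, 4 or 5 or Ech replicate 1 or 3), and in GLASTpos cells, at 14.2, 8.28, 13.3 and 7.36 CPM, it was not called (2.52, edgeR adjusted p = 0.065).

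Nlrc5 encodes the transactivator of class I genes. Over all 15 control libraries 6 counts were found, 3 in hindbrain GLASTneg cells, 1 in GLASTpos cells and 2 in spinal cord, so the gene was not detected in any of them. At E4 it was detected in 6 of 6 libraries of each population, at 28.5 to 52.7 CPM (median 37.9) in hindbrain GLASTneg cells, 14.7 to 72.5 CPM (median 30.9) in GLASTpos cells and 16.6 to 26.1 CPM (median 22.9) in spinal cord. The ratio of pooled levels to C was 138.5 (95% counting interval 47.2 to 673.6), 523.5 (93.6 to 20710) and 152.4 (41.9 to 1263), respectively. Nlrc5 and H2-D1 were the members called at every stage in every population. At Ech in hindbrain GLASTpos cells Nlrc5 was 1.92, 0, 7.33 and 0 CPM, and without the highest library the log2 fold change was 2.45 (edgeR adjusted p = 0.30) in place of 4.53 (edgeR adjusted p = 0.0097).

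**Figure D2:**
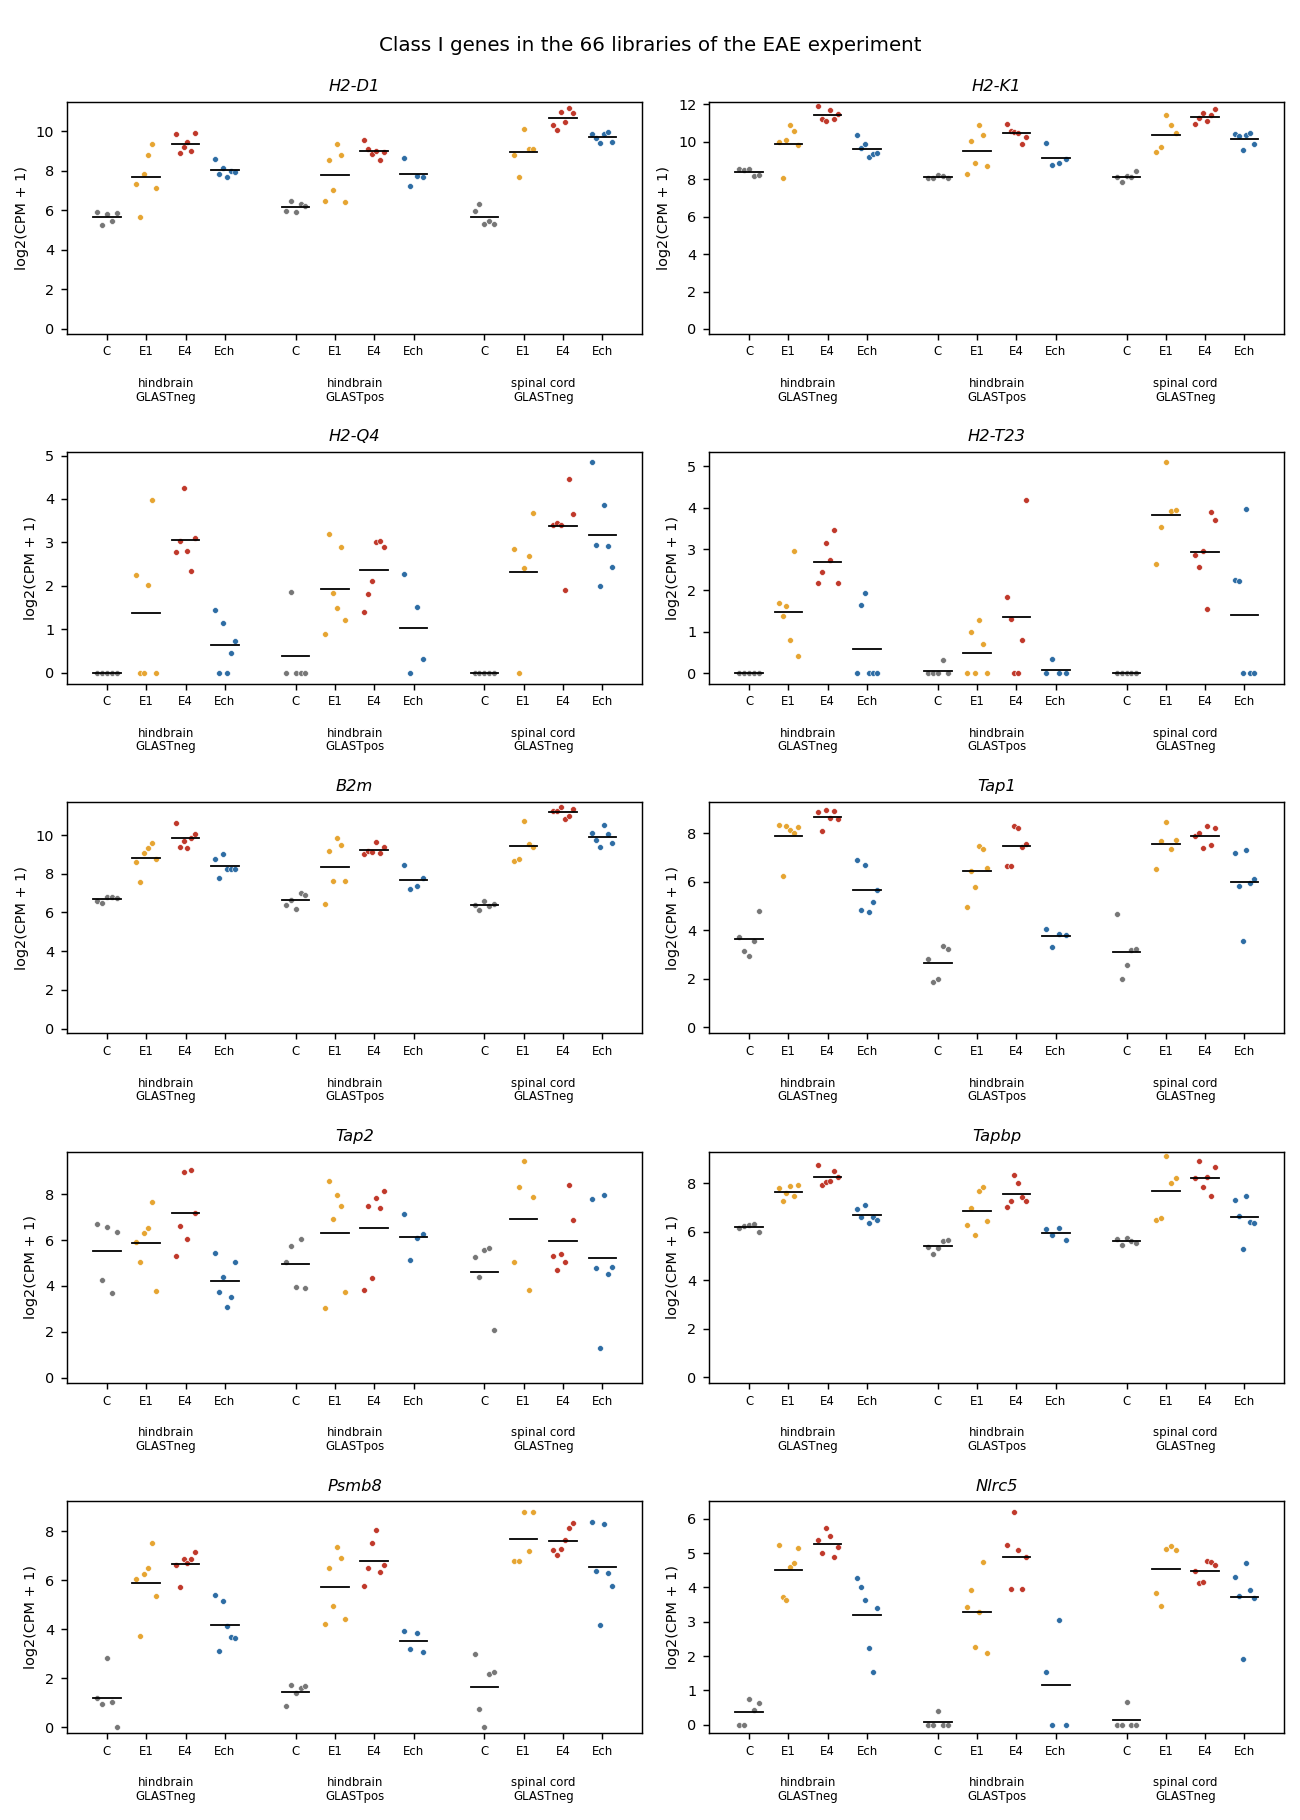
Level of each of the 10 class I genes in each of the 66 EAE libraries, as log2(CPM + 1) on the vertical axis, by stage and population, with 1 point per library and a line at the mean of the group. H2-D1, B2m, Tap1, Psmb8 and Nlrc5 at E4 lie above the controls in every population, E1 groups are widely spread, and Tap2 overlaps the controls throughout.

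The summed level of the members was more spread among libraries at E1 than in the other groups of each population. Sums are not weighted and follow mostly the genes with the most counts. At E4 in spinal cord H2-K1, B2m and H2-D1 averaged 2637, 2353 and 1692 CPM of a mean sum of 7587 CPM. The summed level of the 10 genes varied 1.32-fold between the lowest and highest control library in hindbrain GLASTneg cells, 4.86-fold at E1, 1.77-fold at E4 and 2.02-fold at Ech. In GLASTpos cells these spreads were 1.28-fold, 6.89-fold, 1.55-fold and 2.34-fold, and in spinal cord 1.21-fold, 4.11-fold, 1.46-fold and 2.16-fold. In hindbrain GLASTpos cells the E1 libraries summed to 621.8, 2714, 1063, 4282, 3233 and 918.7 CPM, against 486.6 to 624 CPM in C and 2479 to 3838 CPM at E4. One of them lay within the control range, and the highest lay above all E4 libraries. In the same order, markers of lymphoid cells summed to 2.26, 111.5, 5.38, 315.4, 88.9 and 7.82 CPM in these E1 libraries. The part of such cells in the spread was not tested. In hindbrain GLASTneg cells E1 replicate 2 was at 788.8 CPM while the others lay between 2113 and 3831 CPM. In spinal cord E1 replicate 3 was at 7728 CPM while the others lay between 1881 and 3866 CPM. Of these spinal cord libraries it alone has an S number up to 56. In both populations the E1 spread thus rested largely on 1 library. After group means were removed, the 10 genes rose and fell together over the 66 libraries, with a Pearson r of log2(CPM + 1) of 0.23 to 0.86 (median 0.47) over the 45 pairs. Pairs share library and scaling, so this is a description.

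The mean of the sum over the 10 genes in EAE was 3.99, 8.81 and 2.60 times that of C at E1, E4 and Ech in hindbrain GLASTneg cells. It was 3.99, 6.13 and 2.31 times C in GLASTpos cells and 7.64, 14.9 and 6.81 times C in spinal cord. The mean sums of myeloid and lymphoid markers were higher at E4 than in C in each population, although the sort had left out cells with CD11B or CD45 on their surface. At E1, E4 and Ech the mean myeloid sum was 249.3, 285.9 and 272.3 CPM in hindbrain GLASTneg cells. It was 157.1, 178.3 and 129.2 CPM in GLASTpos cells and 101.4, 691.1 and 85.5 CPM in spinal cord. The sum of myeloid markers was 32 to 97.3 CPM in hindbrain GLASTneg C and 125.7 to 579.4 CPM at E4, 46.2 to 84.9 and 99.9 to 380.1 CPM in GLASTpos cells, and 14.4 to 43.1 and 103.8 to 3444 CPM in spinal cord. Lymphoid markers in GLASTpos cells summed to at most 8.16 CPM in C and to 25.9 to 582.4 CPM at E4, with Cd79a at 0 in both. Leaving out the 4 libraries with over 500 CPM of immune markers, a choice made after the data were seen, left the number of members called against C within 1 of its value in each of the 9 comparisons. The spinal cord E4 libraries that remained still held 103.8 to 219.6 CPM of myeloid markers. This count therefore does not measure the part of other cells. The part of other cell types in the class I levels was not tested.

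**Figure D3:**
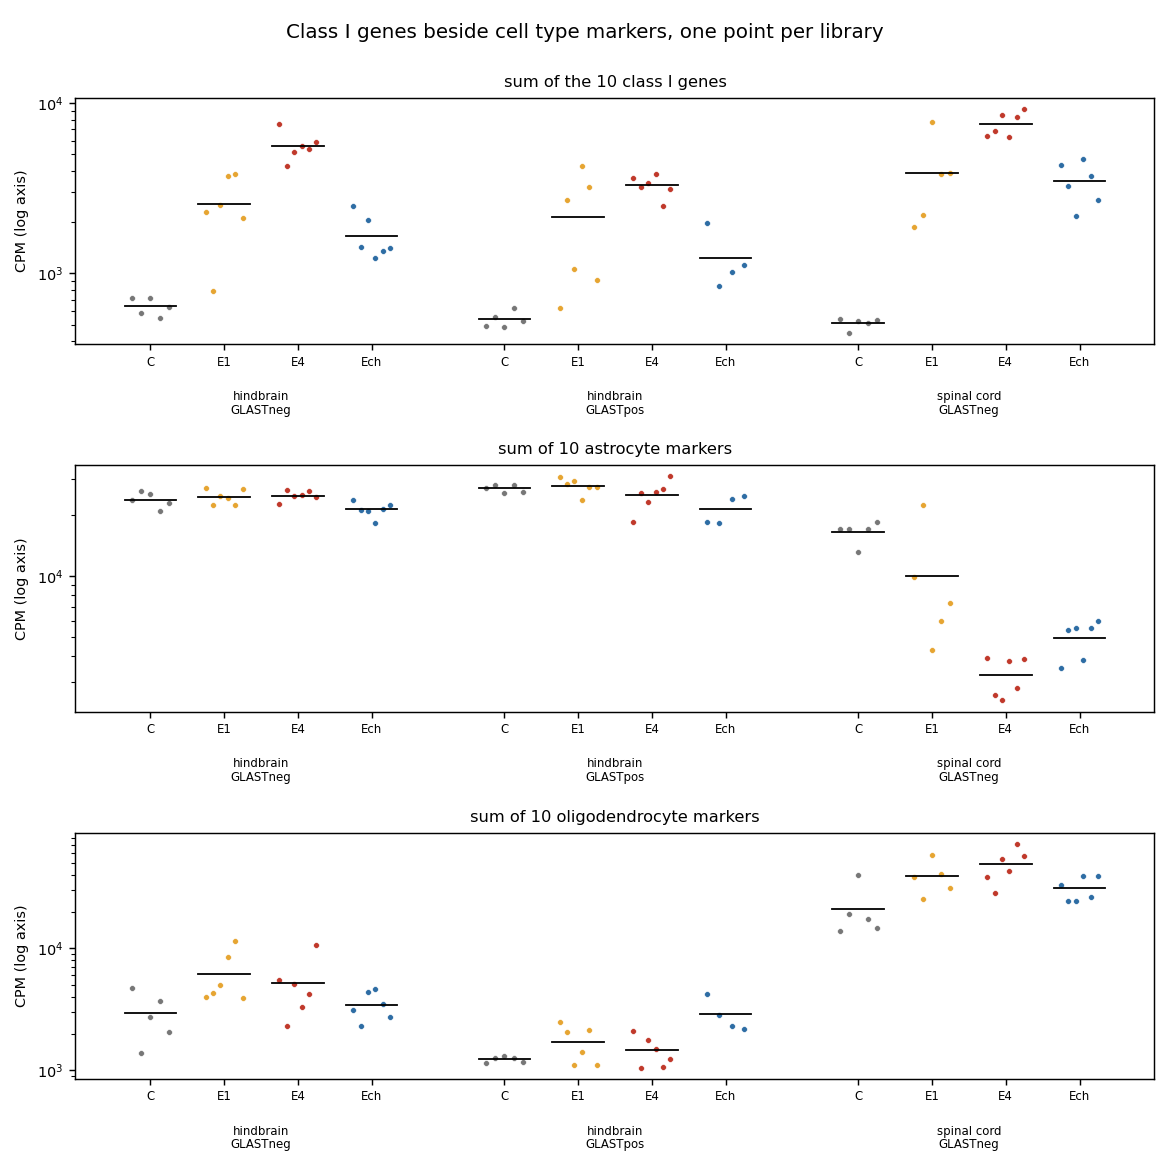
Sums over the 10 class I genes (top), 10 astrocyte markers (middle) and 10 oligodendrocyte markers (bottom) in CPM on log axes, with 1 point per EAE library and a line at the group mean. Class I sums at E4 lie above the controls in all 3 populations, the hindbrain marker sums overlap between C and E4, and in spinal cord the astrocyte sum is lower at E4 and Ech than in C.

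Between E1 and E4 few differences passed the test. In spinal cord H2-D1 (1.55, SE 0.38, edgeR adjusted p = 0.0039) and B2m (1.57, SE 0.34, edgeR adjusted p = 0.00067) were called higher at E4 (0.832% of all genes). B2m did not overlap between the stages, and H2-D1 overlapped through E1 replicate 3. In hindbrain GLASTneg and GLASTpos cells edgeR called 0 of 10 (0.0% and 0.0214% of all genes in either direction), with 4 and 6 at an unadjusted p under 0.05, and DESeq2 also called 0. H2-K1 in hindbrain GLASTneg cells was 2250 to 3925 CPM at E4 and 267.8 to 1938 CPM at E1, without overlap, and its difference of 1.35 was not called (edgeR adjusted p = 0.29).

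From E4 to Ech, 4 to 6 of the 10 members were called lower in each population. In hindbrain GLASTneg cells 5 of 10 were called lower (0.0857% of all genes), which were H2-K1, B2m, Tap1, Tapbp and Psmb8. H2-K1 fell by 1.78 (edgeR adjusted p = 0.00096), B2m by 1.46 (edgeR adjusted p = 0.026), Tap1 by 2.80 (edgeR adjusted p = 8.2e-05), Tapbp by 1.59 (edgeR adjusted p = 0.005) and Psmb8 by 2.35 (edgeR adjusted p = 0.05 after rounding, below the threshold) on the log2 scale. The ranges of 9 members at Ech lay below those at E4, and Tap2 overlapped. The call of B2m was lost without E4 replicate 1 or 6 or Ech replicate 2, 4, 5 or 6 (edgeR adjusted p = 0.066 to 0.16), and that of Psmb8 without these or E4 replicate 3, 4 or 5 (edgeR adjusted p = 0.077 to 0.26).

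In hindbrain GLASTpos cells 6 members were called lower at Ech than at E4 (0.913% of all genes). Tap1 fell by 3.94 (SE 0.54, edgeR adjusted p = 6.1e-07), Nlrc5 by 3.79 (SE 0.69, edgeR adjusted p = 0.00016) and Psmb8 by 3.57 (SE 0.67, edgeR adjusted p = 0.00026), and H2-K1, B2m and Tapbp fell by 1.26, 1.47 and 1.68. Without Ech replicate 2 the calls of H2-K1 (-1.15, edgeR adjusted p = 0.099) and B2m (-1.33, edgeR adjusted p = 0.063) were lost, and that of H2-K1 also without E4 replicate 1 (edgeR adjusted p = 0.051) or Ech replicate 3 (edgeR adjusted p = 0.073) or 4 (edgeR adjusted p = 0.058).

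In spinal cord 4 members were called lower at Ech (1.22% of all genes). H2-K1 fell by 1.15 (edgeR adjusted p = 0.012), B2m by 1.25 (edgeR adjusted p = 0.0086), Tap1 by 1.55 (edgeR adjusted p = 0.014) and Tapbp by 1.57 (edgeR adjusted p = 0.00022). Psmb8, at -0.50 (edgeR adjusted p = 0.66), and Nlrc5, at -0.63 (edgeR adjusted p = 0.55), were not called. An S number up to 56 was carried by 5 of 6 E4 libraries of spinal cord against 2 of 6 at Ech. With a term for this split the differences were -0.97 for H2-K1, -1.02 for B2m, -1.18 for Tap1 and -1.15 for Tapbp, and Tapbp was the 1 member called. Among libraries from 57 on, where E4 is 1 library, they were -1.47, -1.73, -1.28 and -1.27, and 0 were called (edgeR adjusted p = 0.44 to 1). Over the 10 members the mean at Ech was a median of 22.7% of the mean at E4 in hindbrain GLASTneg cells, 31.4% in GLASTpos cells and 49.0% in spinal cord. Whether this remaining share differs between populations was not tested.

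The E4 response was then compared between populations by an interaction contrast. B2m rose by 1.61 more in spinal cord than in hindbrain GLASTneg cells on the log2 scale (SE 0.47, edgeR adjusted p = 0.017), and it was the 1 member called (1.92% of all genes were called higher). Against hindbrain GLASTpos cells H2-D1 rose by 2.17 more (SE 0.53, edgeR adjusted p = 0.0024) and B2m by 2.23 more (SE 0.47, edgeR adjusted p = 0.00032), and these were the 2 called (3.79%). Between hindbrain GLASTpos and GLASTneg cells edgeR called 0 of 10 (0.00857% of all genes in either direction), with 1 at an unadjusted p under 0.05, and DESeq2 also called 0. H2-K1 (0.13, SE 0.44), Tap1 (-0.34, SE 0.65), Tapbp (0.61, SE 0.43) and Psmb8 (0.28, SE 1.13) did not pass the test between spinal cord and hindbrain GLASTneg cells.

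These differences in response were tied to libraries of unequal S number, since all hindbrain GLASTneg libraries have a number up to 56 and all spinal cord controls one from 57 on. With a term for the split the B2m difference to GLASTneg cells was 1.15 (edgeR adjusted p = 0.25). The differences to GLASTpos cells were 1.85 for H2-D1 (edgeR adjusted p = 0.039) and 1.77 for B2m (edgeR adjusted p = 0.017). With the bracketed label number as a random block in limma voom, B2m differed by 1.76 from GLASTneg cells. H2-D1 and B2m differed by 2.31 and 2.22 from GLASTpos cells there, and none of the 3 passed the test (limma voom adjusted p = 0.28, 0.091 and 0.074). A block joined libraries of a stage that share a label number directly or by way of other libraries, which gave 26 blocks for 66 libraries. Such numbers recur across populations of a stage, and the main test took all libraries as independent. Within blocks the consensus correlation was 0.0366. No voom fit without the block was run, so the change of tool and the block cannot be told apart. Leaving out any 1 library left the 3 calls in place, with differences of 1.52 to 1.82, 2.08 to 2.37 and 2.12 to 2.33. The fall of the astrocyte markers and of Atp1b2 was seen in spinal cord, and its part in these differences was not tested.

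**Figure D4:**
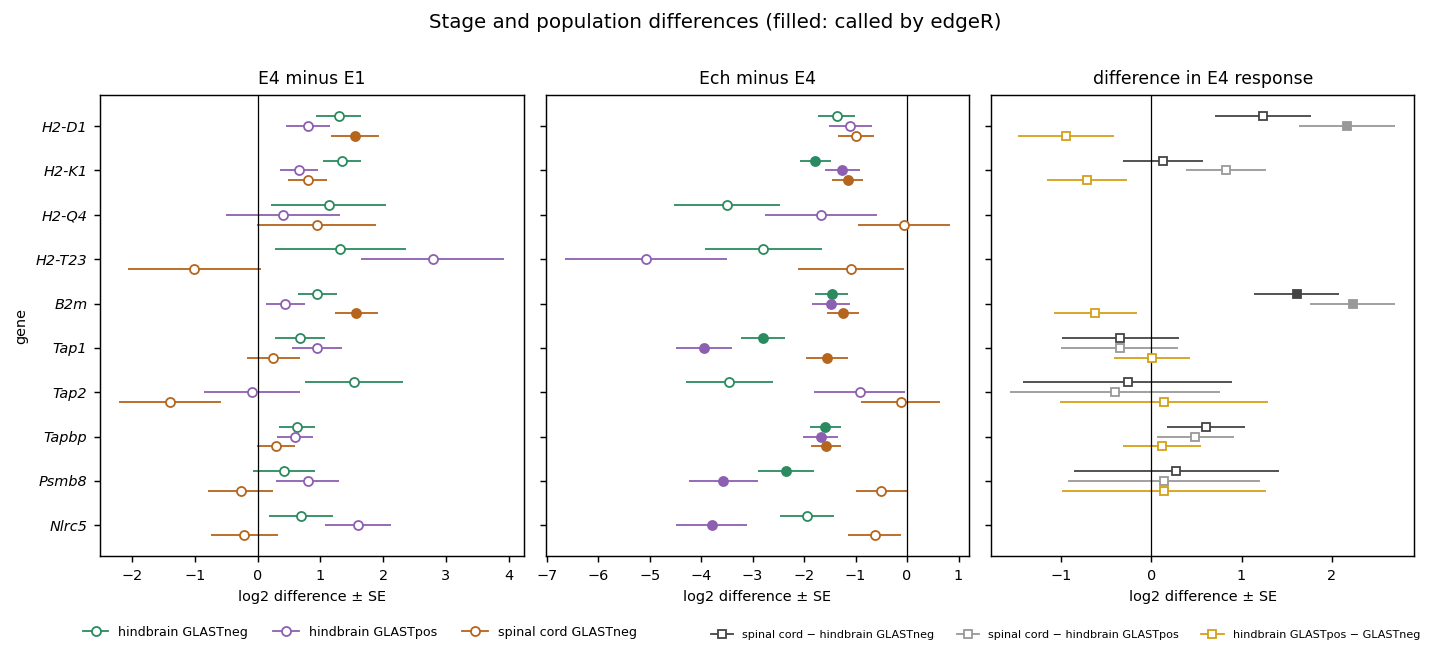
Log2 differences with standard errors of edgeR between E4 and E1 (left), Ech and E4 (middle), and in the E4 response between pairs of populations (right), by gene, with filled symbols for calls. H2-Q4, H2-T23 and Nlrc5 are left out on the right, because their controls held 0 to 7 counts. B2m and H2-D1 in spinal cord are the filled symbols on the left, and most differences in the middle lie below 0.

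Among the controls edgeR called 0 of 10 members in each of the 3 comparisons between populations (10.5%, 4.2% and 13.8% of all genes were called in either direction in hindbrain GLASTpos against GLASTneg, spinal cord against GLASTneg and spinal cord against GLASTpos cells). At an unadjusted p under 0.05 there were 3, 0 and 1, and DESeq2 called 0. Tapbp was 72.8 ± 6.43 CPM in hindbrain GLASTneg and 41.9 ± 6.76 CPM in GLASTpos controls without overlap, a log2 difference of -0.79 (SE 0.32, edgeR adjusted p = 0.092). H2-D1 was higher in GLASTpos controls without overlap, by 0.53 (SE 0.40, edgeR adjusted p = 0.38). The S numbers were 32 to 51 in hindbrain GLASTneg controls, 68 to 95 in GLASTpos controls and 60 to 83 in spinal cord controls. In control comparisons with hindbrain GLASTneg cells, population and S number can therefore not be told apart. This holds for the Tapbp and H2-D1 differences given here. The class I sum was 639.2 ± 77.4, 535.9 ± 56.1 and 511 ± 37.6 CPM in hindbrain GLASTneg, hindbrain GLASTpos and spinal cord (n = 5 each).

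Other parts of the pathway were read from lists. Of the 4 other immunoproteasome genes, 4, 3 and 4 were called higher at E4 in hindbrain GLASTneg, hindbrain GLASTpos and spinal cord, where 0.707%, 1.66% and 6.8% of all genes were called higher. Psmb9, the neighbour and partner subunit of Psmb8, rose by 5.86, 7.35 and 5.64 on the log2 scale, and Psmb10 by 2.20, 2.49 and 2.45. Psme2 of the PA28 activator rose by 2.08, 1.54 and 2.25, and Psme1 by 1.84 in GLASTneg hindbrain and 1.68 in spinal cord, with 0.92 in GLASTpos cells (edgeR adjusted p = 0.16). Of the 3 standard subunits that these replace, Psmb5, Psmb6 and Psmb7, 0, 0 and 1 were called, the last being Psmb7 in spinal cord (1.71, SE 0.38, edgeR adjusted p = 0.00034).

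Of 5 further loading factors 1, 2 and 1 were called higher (0.707%, 1.66% and 6.8% of all genes). Tapbpl, a tapasin-like peptide editor, rose by 1.93, 1.83 and 2.06, and Erap1, which trims peptides, rose by 1.74 in GLASTpos cells (edgeR adjusted p = 0.045). The general chaperones Calr, Canx and Pdia3 lay between -0.33 and 0.66 and were not called. Of the list of interferon signalling, which is given in part and without a count, Irf1 (3.76, 4.34 and 4.89), Stat2 (3.23, 2.99 and 2.82) and Irf9 (3.06, 2.60 and 3.21) were called higher in each population (0.707%, 1.66% and 6.8% of all genes). The receptor genes Ifngr1, Ifngr2, Ifnar1 and Ifnar2 were not called at E4.

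Of 22 other heavy chain genes 13 could be tested, and 1, 2 and 3 were called higher (0.707%, 1.66% and 6.8% of all genes). H2-Q7, a Qa-2 gene, rose by 6.27, 5.46 and 6.90. H2-M3, which presents formylated peptides, rose in GLASTpos cells (4.42, edgeR adjusted p = 0.024), and H2-T22 in spinal cord (2.65, edgeR adjusted p = 0.015). H2-Q6 was at 0 counts in spinal cord controls and at 2.80 ± 2.59 CPM at E4, and was called. Of 6 genes of the factors with which NLRC5 works, RFX and NF-Y, 1 was called, and Rfxank fell by 1.23 in spinal cord (SE 0.34, edgeR adjusted p = 0.0044), where 11.1% of all genes were called lower. Not all partners of β2-microglobulin followed it. In spinal cord Fcgrt, the neonatal Fc receptor, fell from 21.1 ± 7.63 CPM in C to 1.38 ± 0.915 CPM at E4, by 3.91 on the log2 scale (SE 0.48, edgeR adjusted p = 5.9e-10), and Mr1, which presents vitamin metabolites, fell by 1.64 (SE 0.37, edgeR adjusted p = 0.00043). In hindbrain neither passed the test. The astrocyte markers fell in the same spinal cord libraries, and their part in the fall of Fcgrt and Mr1 was not tested.

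Of 2 interferon genes Ifng could be tested and was not called at E4 in any population, with 0 counts in all controls and means of 0.459, 0.290 and 0.15 CPM at E4. The genes outside these lists whose 12 group means were most like the mean of the members were Cd274, the ligand PD-L1 (Pearson r = 0.979 over 12 group means among 10878 genes compared), Irf7 (r = 0.979), Gbp7 (r = 0.978), Gbp3 (r = 0.972) and Ifi35 (r = 0.971). The groups share libraries and controls, so these values are descriptions.

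In the subtype experiment the isolated FVB/N libraries held 416768 to 1269316 counts (median 907710). The labels and a supplementary table of the study name 4 of the 5 populations differently, and the markers go against the labels. Slc1a3, which encodes GLAST, and Gdf10, a marker of Bergmann glia of the cerebellum, were highest in the libraries labelled spinal cord GLASTneg (Gdf10 at 2307 CPM), and 7 Hox genes of the caudal cord summed to 567.5 CPM in those labelled hindbrain GLASTneg against 0.413 CPM in those labelled spinal cord. In the supplementary table the libraries labelled hindbrain GLASTneg are named spinal cord GLASTneg, and those labelled spinal cord GLASTneg are named hindbrain GLASTpos. The markers given here go with those supplementary names. Libraries labelled forebrain GLASTpos and hindbrain GLASTpos are named hindbrain GLASTneg and forebrain GLASTpos there. Populations are still called here by their labels, and no region or sort is read from the labels.

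The class I sum was 413.4 ± 40.6 CPM in the libraries labelled forebrain GLASTneg, 517.7 ± 72.9 CPM in forebrain GLASTpos, 618.1 ± 66.6 CPM in hindbrain GLASTneg, 398.9 ± 77.9 CPM in hindbrain GLASTpos and 451.8 ± 52.9 CPM in spinal cord GLASTneg (n = 3 each). Of the 10 genes 8 passed the filter, and H2-Q4 and Nlrc5 did not. EdgeR called 0 of 8 in each population against the mean of the others (1.18%, 1.94%, 4.41%, 2.49% and 7.54% of 14957 genes were called in either direction, in the same order). At an unadjusted p under 0.05 there were 1, 0, 4, 1 and 1, and DESeq2 called 0. The 4 lay in the population labelled hindbrain GLASTneg, and were H2-D1 (0.75), H2-K1 (0.58), H2-T23 (3.29) and Tap1 (1.13), each at an edgeR adjusted p of 0.16 to 0.18. FVB/N mice carry other class I alleles than the C57BL/6 reference, and the effect of this on the counts of the heavy chains was not tested.

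Cultured astrocytes had higher levels of 6 of 10 members than the mean of the isolated groups, in a comparison where 23.3% of 17126 genes were called higher. The median log2 difference was 1.44 for the members and 0.43 for all genes. B2m was 459.4, 419.6 and 858.9 CPM in culture and 94.9 to 258.6 CPM in isolated libraries (1.88, SE 0.19, edgeR adjusted p = 7.6e-11). Tapbp was 362.8, 363.1 and 440.4 CPM in culture and 9.67 to 93.8 CPM in isolated libraries (2.75, SE 0.23, edgeR adjusted p = 3.8e-13). Psmb8 was 15.9, 30.2 and 37.6 CPM in culture and 0 to 13.1 CPM in isolated libraries (3.68, SE 0.77, edgeR adjusted p = 0.00016). These 3 genes did not overlap between culture and isolated libraries.

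The other calls rested on low counts or on a value at the threshold. H2-Q4 was 2.39, 2.40 and 2.20 CPM in culture, against 4 counts in all isolated libraries together (edgeR adjusted p = 0.013), and Nlrc5 was 1.19, 0.80 and 1.40 CPM against 2 counts (edgeR adjusted p = 0.024, and 0.058 to 0.086 without any 1 culture). Tap1 was 1.00 higher (edgeR adjusted p = 0.034), and the call was lost in DESeq2 (0.88), with RLE scaling (0.88), with filterByExpr (0.85), with the replicate block and without any 1 culture (0.86 to 1.08, edgeR adjusted p = 0.073 to 0.18) or any 1 of 8 isolated libraries. H2-D1 (0.81), H2-K1 (0.99) and Tap2 (0.40) were not called, and H2-T23 had 1 count in all 3 cultures. The cultures were of another strain and age, had been extracted with another reagent and had received conditioned medium. Their myeloid markers summed to 331.1 to 2547 CPM against at most 247.5 CPM in isolated libraries, and their endothelial markers to 357.8 to 430.2 CPM. Cultures came from cerebrum and held 2183464 to 8188074 counts. In isolated libraries the detection limit of 3 counts was 2.45 to 7.05 CPM, above the cultured levels of H2-Q4 and Nlrc5. Strain, age, region, depth, extraction and culture cannot be told apart here.

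**Figure D5:**
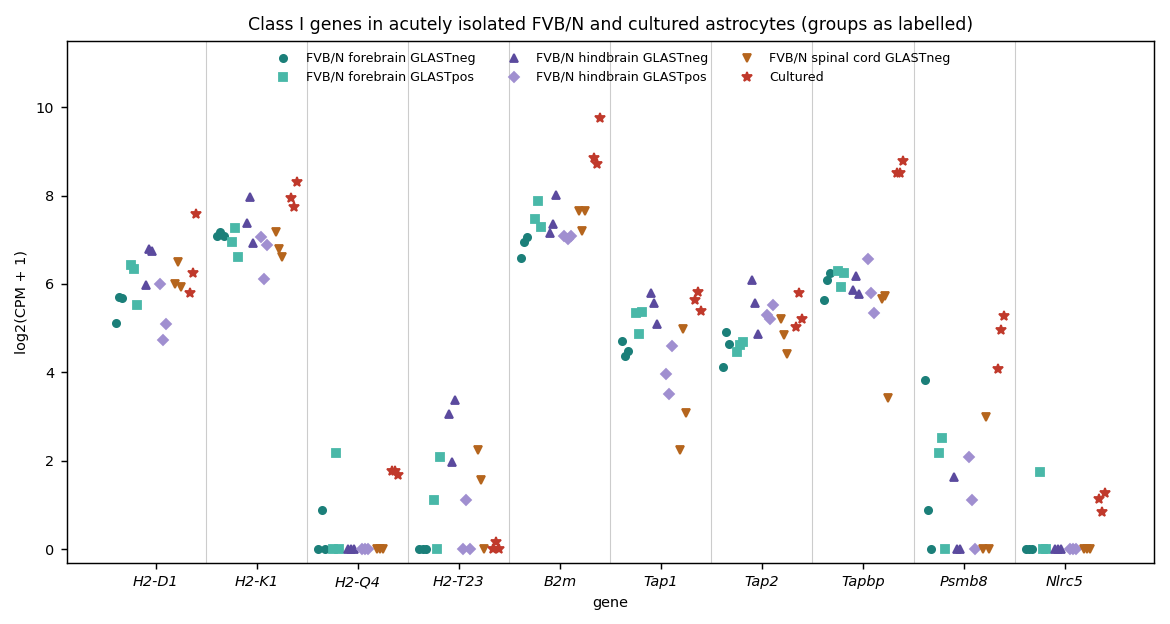
Level of the 10 class I genes as log2(CPM + 1) in the 15 libraries of acutely isolated FVB/N astrocytes and the 3 of cultured astrocytes, 1 symbol per library, with groups as the labels name them. B2m, Tapbp and Psmb8 in culture lie above all isolated libraries, and H2-Q4 and Nlrc5 are at 0 in most isolated libraries.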

How the data were processed

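Single-end 3′ tag libraries (QuantSeq) of sorted or cultured astrocytes were used. The authors aligned reads with HISAT 0.1.5 to GRCm38 and counted them per gene with HTSeq 0.6.1p1 in union mode, and deposited raw counts. Whether counting used strand was not given in the sources used here. The members and all lists were chosen with earlier results of these data known.

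From the deposited counts, genes with at least 10 counts in total were tested with edgeR 4.0.16 (TMM scaling, quasi-likelihood test, R 4.3.3) with Benjamini-Hochberg adjustment over all genes. The 66 EAE libraries were fitted together in 12 groups, the 15 isolated FVB/N libraries in 5, and the 18 with cultures in 6. Ratios to 1 to 3 control counts carry 95% counting intervals, which cover counting error only. Alternatives were DESeq2 1.42.0, other scaling and filters, a block for the replicate number, limma 3.58.1 voom with the label number as block, terms or subsets for the S number, and each library left out. The procedure was tested on simulated data. Groups came from the labels, with 0 unmapped columns.

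All 10 members were named. Of the other lists, the 10 called genes with the largest absolute change at E4 in spinal cord and any gene of a count of 5 or fewer were named, and for likeness the 5 genes with the highest Pearson r to the mean of the members over 12 group means. Among other lists, marker genes were given as sums. Part of the list of interferon signalling is not reported here.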

Additional observations from a re-analysis of the deposited data

Results flagged for a closer look

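In 16 of the 116 groups of 4 to 6 libraries examined, 1 library lay far from the others. Chance alone gives about 1 in 20 where values spread evenly about their mean. Several of the 16 groups lay near 0 counts, where this rate need not hold, so no excess is read from the number. H2-Q4 was highest in E1 hindbrain GLASTneg replicate 5 (14.6 CPM), E4 hindbrain GLASTneg replicate 3 (18.1 CPM) and C hindbrain GLASTpos replicate 2 (2.65 CPM). H2-T23 was highest in E1 hindbrain GLASTneg replicate 5 (6.73 CPM), C hindbrain GLASTpos replicate 4 (0.254 CPM), E4 hindbrain GLASTpos replicate 6 (17.3 CPM), Ech hindbrain GLASTpos replicate 2 (0.276 CPM) and Ech spinal cord replicate 4 (14.5 CPM). Nlrc5 stood apart in C hindbrain GLASTpos replicate 3 (0.326 CPM) and C spinal cord replicate 3 (0.573 CPM), each a single count.

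Among the better counted genes, B2m was highest in E1 spinal cord replicate 3 (1716 CPM), Tap2 in E4 spinal cord replicate 5 (334.1 CPM) and Psmb8 in C hindbrain GLASTneg replicate 3 (5.99 CPM). Tap1 was highest in C hindbrain GLASTneg replicate 5 (27.0 CPM) and C spinal cord replicate 1 (24.8 CPM), and lowest in E1 hindbrain GLASTneg replicate 2 (74.9 CPM).

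The E4 response differed between populations in 3 tests of the difference itself. B2m rose by 1.61 more in spinal cord than in hindbrain GLASTneg cells, and H2-D1 by 2.17 and B2m by 2.23 more than in hindbrain GLASTpos cells, on the log2 scale. All 3 missed the threshold in limma voom with the label number as a block (adjusted p = 0.28, 0.091 and 0.074), where tool and block changed together. B2m against GLASTneg cells also missed it with the S number term (1.15, edgeR adjusted p = 0.25).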

How the results depend on the processing

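Of the 93 differences called for members, 0 changed direction over 1961 refitted values, and 99 of these values lost the call. Directions of differences that were not called were not followed. The number of members called moved by more than 1.5 times in these cases. For cultured against isolated astrocytes it was 3 with DESeq2 and 3 with filterByExpr, in place of 6, and H2-Q4 and Nlrc5 had no adjusted p in DESeq2. At Ech against C in hindbrain GLASTpos cells it was 5 with DESeq2, 5 without a filter and 4 with total counts only, in place of 2. At E4 against E1 in hindbrain GLASTneg cells it was 1 without a filter and 1 with only that population fitted, in place of 0, and at Ech against E4 in the same cells it was 8 with only that population, in place of 5. At Ech against E4 in spinal cord it was 1 with a term for the S number and 0 among numbers from 57 on, in place of 4. For the E4 response of spinal cord against hindbrain GLASTneg cells it was 0 with the S number term, in place of 1. It was also 0 there with limma voom and the label number block, and against GLASTpos cells 0 with that voom fit, in place of 2. The causes were not tested.

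Leaving out 1 library gave 7 to 8, 7 to 8 and 9 to 10 members at E1 against C (hindbrain GLASTneg, hindbrain GLASTpos and spinal cord), 8 to 9, 7 to 8 and 9 to 9 at E4, and 3 to 6, 1 to 2 and 8 to 9 at Ech. The lowest numbers at Ech arose in hindbrain GLASTneg cells without control replicate 1, 2 or 4 or Ech replicate 1 or 3, and in GLASTpos cells without Ech replicate 1 or 3. For Ech against E4 the numbers were 3 to 5, 4 to 7 and 4 to 4, with 3 in hindbrain GLASTneg cells without E4 replicate 1 or 6 or Ech replicate 2, 4, 5 or 6. For E4 against E1 in spinal cord they were 2 to 3, and for cultures 4 to 7. In the FVB/N populations labelled hindbrain GLASTneg and spinal cord GLASTneg they were 0 to 1, with 1 in each without replicate 2 of the latter.

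Libraries with the same replicate number did not deviate together on average (mean r of -0.007 over 92 pairs, against 0.002 over 451 others). This cannot exclude pairing, since some libraries with the same replicate number also share a bracketed label number. With the replicate block 7 members were called at E4 against C and 3 at Ech against C in hindbrain GLASTpos cells, 6 at Ech against C in hindbrain GLASTneg cells, and in all other comparisons the count equalled that without it. Depth limited H2-Q4, H2-T23 and Nlrc5, whose control groups held 0 to 7 counts.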
